A study of Mus musculus with 20 samples.

Results

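The genes described here are 236 mouse genes of the Zfp series, named for the zinc finger that their proteins carry, which were expressed in regulatory T cells (Tregs) and CD8+ T cells before and after stimulation with IL-2 or with IL-2-REH, a partial agonist. They were chosen by their measured levels: of 333 gene symbols made of Zfp and a number, leaving out the unrelated RNA-binding gene Zfp36, 236 had a mean of at least 1 RPKM over 20 libraries. RPKM is the number of reads on the exons of a transcript, divided by the length of its exons and by the mapped reads in that library. The other 97 symbols fell below this minimum, and 4 of them had no read in any library. The values just outside the minimum were 0.976 RPKM for Zfp580, 0.983 for Zfp946 and 0.985 for Zfp551, and those just inside were 1.0 for Zfp661, 1.03 for Zfp345 and 1.04 for Zfp870.

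A C2H2 zinc finger is a short fold in which paired cysteines and histidines hold a zinc ion, and a row of such fingers reads a stretch of DNA. Many members also carry a KRAB box, which recruits the corepressor Trim28 and, through it, the histone methyltransferase Setdb1 and heterochromatin proteins, and such genes are known for silencing retroelements and for keeping imprints. KRAB genes arose by repeated duplication and lie side by side in the genome, whereas members without the box include activators, splicing factors and ribosome factors.

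Tregs were sorted by GFP from B6-Foxp3EGFP reporter mice, whereas C57BL/6J mice were the source of CD8+ T cells according to the methods; the strain entered with the samples is C57BL/6N for both. Both cell types were profiled without stimulation and after 90 min or 4 hr ex vivo with IL-2 or IL-2-REH, each at 200 nM. IL-2-REH is IL-2 with substitutions that weaken recruitment of the common gamma chain of the receptor. Each of the 5 Treg groups had 3 libraries, numbered 1 to 3, and each of the 5 CD8+ groups had 1 library. No source says whether the numbered libraries came from separate mice, so p-values measure the spread between these libraries. The ages of the mice are not given in the sources used here.

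The libraries held 20201397 to 63903766 reads on genes, and the members took 0.814% to 1.09% of them. Treg and CD8+ libraries matched their labels, with Foxp3 at 65.2 to 252 RPKM in Tregs against 0.482 to 0.999 in CD8+ cells, and Cd8a at 103 to 256 RPKM in CD8+ cells against 0.0879 to 1.84 in Tregs. Unstimulated Treg library 1 stood apart from libraries 2 and 3. Its distance from their mean was above 1 on the log2 scale for 14.3% of expressed genes, although for only 11 members (4.66%). The other distant library was IL-2 4 hr library 3, which had the fewest reads, and which was that far from its group for 41 members (17.4%, against 11.7% of expressed genes). The summed level of 7 macrophage and monocyte markers was 15.4 RPKM in unstimulated Treg library 1 against 85.1 and 63.6 in libraries 2 and 3, and it was 7.33 to 44.6 in the stimulated Tregs. Its part in the differences from unstimulated cells described here was not tested. The summed level of 5 erythroid genes was 132 to 230 RPKM in every Treg library numbered 3 and at most 20.5 in the others. In these bulk samples, fewer cells of a type and less RNA per cell cannot be told apart.

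Protein sequences translated from the GENCODE annotation divided the members into 135 with a KRAB box, 100 without one and 1, Zfp783, for which no protein was read. A member is said here to have no KRAB box where the search by identity to a consensus found none, and a divergent box could be missed. A SCAN domain, which lets such proteins pair, was found in 9 members, and 5 of these also had a KRAB box. By a strict search for the C2H2 pattern, which gives a minimum, KRAB members held a median of 12 fingers and the others 7.5. Members were on 20 chromosomes, led by chromosome 7 with 58, chromosome 17 with 30 and chromosome 13 with 23. Another member lay within 250 kb for 136 of them, which was the case for 106 KRAB members (78.5%) and 29 of the others (29.0%).

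Promoter windows, the 250 bases before to 50 after the annotated start in RefSeq (GRCm38.p6), were at hand for 200 members. The letters ACTACA, any 2 bases, then TCCC, read on both strands, were in 36 of them (18.0%), in 28 of 122 KRAB members (22.95%) and in 8 of 77 others (10.39%). Over all expressed genes the share was 5.04% of 7700 windows, and over all genes 1.97% of 27025. These letters, chosen after the promoters had been examined, are known as a binding element of the Zfp143 family, and Zfp143 is itself a member. The element lay at a median of 56 bases before the start, and 29 of 37 matches were within 100 bases of it. Of the 36 members, 22 belong to a pair of gene clusters, with 13 of 15 windows of a chromosome 13 cluster and 9 of 12 windows of a chromosome 7 cluster. The 8 bases on each side of the element are shown for members of both clusters, because they show how alike these promoters are. The element is in capitals and the strand is that of the gene. In the chromosome 13 cluster (chr13:67038594-67827000) the sequences were:
Zfp712: agaattgtGGGAAATGTAGTctcgtccg
Zfp455: agacttctGGGATATGTAGTccaagcaa
Zfp457: tgacttgtGGGAAATGTAGTcccatcgc
Zfp595: tgacttgtGGGAAATGTAGTccctacca
Zfp953: tgatttgtGGGAAATGTAGTccggatgc
Zfp456: agacttctGGGAGATGTAGTccgcacca
Zfp429: agacttctGGGAGATGTAGTccgcaccg
Zfp58: agacttgtGGGAATTGTAGTctggccac
Zfp748: agacttgtGGGAAGTGTAGTcttccgtt
Zfp738: tgacttgtGGGAAGTGTAGTcccgtccc
Zfp273: agacttctGGGAAATGTAGTttctctct
In the chromosome 7 cluster (chr7:29768552-30169775) they included:
Zfp84: cgccttctGGGAAATGTAGTccactata
Zfp790: ggtattctGGGAAATGTAGTtcaaggcc
Zfp940: ggactcctGGGAAATGTAGTtcaagact
Zfp260: agacttctGGGAAATGTAGTtcacagtt
Zfp420: gccattggACTACATTTCCCagagccac

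In the chromosome 13 cluster all 11 sequences shown read the element on the strand opposite to the gene, whereas the chromosome 7 cluster held it in both orientations. The letters TTCNNNGAA, which a STAT5 dimer is known to bind, were in 36 of the 200 windows as well (18.0%, against 7.06% of expressed genes and 8.42% of all genes), and 20 windows held both. The match to TTCNNNGAA overlapped the first element in 9 windows. Over expressed genes, 87 of the 544 windows with TTCNNNGAA also held the first element. The windows of Zfp281, Zfp747, Zfp219, Zfp553, Zfp866 and Zfp46, which passed the test in Tregs described below, held no match to TTCNNNGAA. A match to a short motif is a description of the letters, and binding was not measured here. KRAB windows held a median of 11 CpG pairs, against 20 in the windows of other members and 21 over expressed genes.

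**Figure D1:**
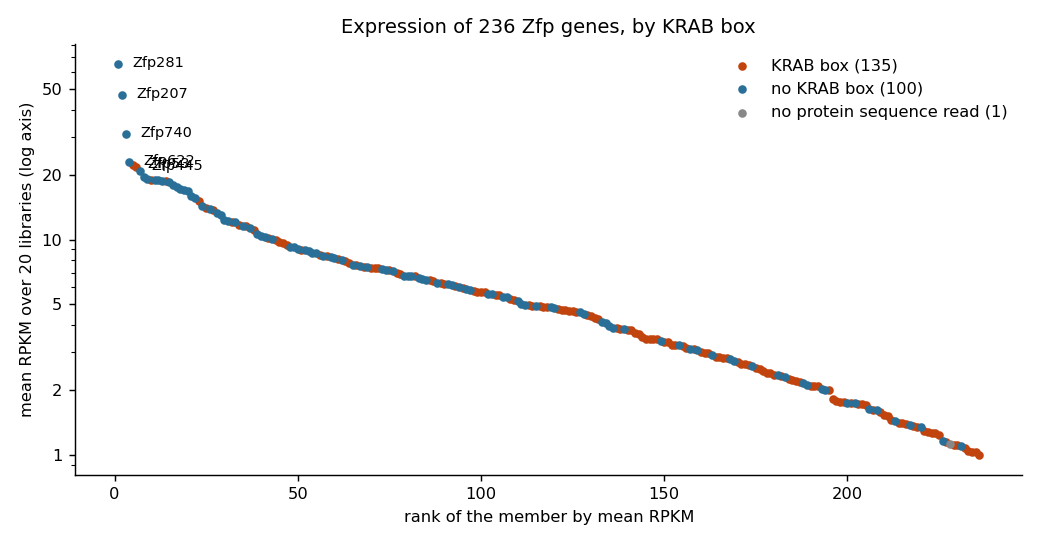
Mean RPKM over 20 libraries (log axis) of the 236 members, ordered by rank; each point is a gene, coloured by whether its protein has a KRAB box. Zfp281 has the highest mean at 65.4 RPKM, and the KRAB members lie lower, with a median of 3.47 against 6.78 for the others.

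Most members were expressed at low levels. Their median mean was 4.85 RPKM, against 9.07 over the 10458 genes that reached the same minimum, and 125 of them lay under 5 RPKM. The 5 highest means were 65.4 RPKM for Zfp281, a transcription factor of GC-rich promoters known from embryonic stem cells, 46.9 for Zfp207, a spindle and kinetochore protein, 30.9 for Zfp740, 22.9 for Zfp622, a ribosome maturation factor, and 22.2 for Zfp53. The latter was the only KRAB member among these 5. KRAB members had a median of 3.47 RPKM and 45 of 135 (33.3%) reached 5 RPKM, whereas the others had a median of 6.78 RPKM and 66 of 100 (66.0%) reached it. Since the members were selected on these levels, the levels are given as a description.

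Zfp281 showed the largest change among the members that passed the test after IL-2. Libraries 1, 2 and 3 of unstimulated Tregs gave 49.2, 32 and 41.9 RPKM, and after 90 min of IL-2 it was 101, 132 and 141. Every IL-2 library at 90 min was above every unstimulated library. The mean rose from 41.0 ± 8.63 (SD, n = 3) to 124.9 ± 21.0 RPKM, a log2 fold change of 1.74 (SE 0.31, adjusted p = 0.0147 by edgeR's quasi-likelihood test with Benjamini-Hochberg adjustment over 14992 genes, as for all adjusted p-values here). A member was called changed where the adjusted p was under 0.05. After 90 min of IL-2-REH its RPKM was 88.0, 90.5 and 101, which also lay above every unstimulated library, with a log2 fold change of 1.30 (SE 0.30) that did not pass (adjusted p = 0.25). At 4 hr its levels were lower again and more scattered, with 64.9, 104 and 45.8 RPKM after IL-2 and 56.5, 79.6 and 69.9 after IL-2-REH. The log2 fold changes at 4 hr, 0.81 and 0.71, did not pass the test (adjusted p = 0.185 and 0.327). Zfp281 lies at chr1:136624901-136630391. Its promoter is rich in CpG, with 19 CpG pairs in the 250 bases before the start. They are shown at chr1:136624651-136624900 (plus strand), with a match to CCAAT in capitals:
Zfp281: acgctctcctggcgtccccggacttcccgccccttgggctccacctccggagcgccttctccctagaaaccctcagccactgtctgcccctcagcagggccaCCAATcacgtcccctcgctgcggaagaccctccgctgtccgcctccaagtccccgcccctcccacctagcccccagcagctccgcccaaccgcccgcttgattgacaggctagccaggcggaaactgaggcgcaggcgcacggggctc

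Zfp747, a KRAB gene at chr7:127372537-127376050, was the other member that passed at 90 min of IL-2. It was at 5.09, 3.02 and 3.15 RPKM in unstimulated Tregs and at 8.03, 7.40 and 6.70 after IL-2, so that the groups did not overlap. Its log2 fold change was 1.08 (SE 0.23, adjusted p = 0.0436). After IL-2-REH for 90 min it was at 8.26, 7.11 and 6.95 RPKM, with the same log2 fold change of 1.08 (SE 0.23) and an adjusted p of 0.18. In CD8+ cells, with 1 library per group, it was at 4.04 RPKM unstimulated and at 7.58 and 7.12 after 90 min of IL-2 and IL-2-REH. The 250 bases before its start, at chr7:127376051-127376300 (minus strand), held only 3 CpG pairs, and the capitals mark a CCAAT match on the opposite strand and the letters CACGTG (E-box):
Zfp747: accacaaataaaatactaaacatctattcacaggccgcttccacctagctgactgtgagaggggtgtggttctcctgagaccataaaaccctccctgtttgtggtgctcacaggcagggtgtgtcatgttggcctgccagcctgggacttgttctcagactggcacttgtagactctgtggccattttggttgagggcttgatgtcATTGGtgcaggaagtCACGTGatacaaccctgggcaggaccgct

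At 4 hr of IL-2, 4 members rose and none fell. Zfp219, a transcription factor known as a partner of Sox9 in cartilage, was at 6.16, 11.3 and 6.78 RPKM in unstimulated Tregs and at 10.5, 20.5 and 17.5 after IL-2. The groups overlapped in a single library each, since unstimulated library 2 was above IL-2 library 1. The log2 fold change of Zfp219 was 1.10 (SE 0.27, adjusted p = 0.0487). Zfp219 (chr14:52006075-52021140) overlaps Arhgef40 and Tmem253, and as the strand of the counting is not given in the sources used here, part of its reads is uncertain. Zfp553, which has no KRAB box and is a neighbour of Zfp747, lies at chr7:127233061-127238197, overlaps Gm4532 and was at 5.22, 7.76 and 5.30 RPKM before and 8.55, 10.3 and 11 after IL-2, without overlap. Its log2 fold change was 0.80 (SE 0.18, adjusted p = 0.0391).

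Zfp866, a KRAB gene at chr8:69761324-69774911, was at 5.0, 5.29 and 3.34 RPKM unstimulated and at 6.71, 9.18 and 6.87 after 4 hr of IL-2, again without overlap. It had a log2 fold change of 0.80 (SE 0.19, adjusted p = 0.0457), and after IL-2-REH one of 0.82 (SE 0.19, adjusted p = 0.0918). Zfp46, at chr4:136284168-136293942 and without a KRAB box, was at 2.56, 3.07 and 2.64 RPKM unstimulated and at 3.86, 4.64 and 4.43 after IL-2, with a log2 fold change of 0.72 (SE 0.17, adjusted p = 0.046). All 6 members that passed were higher in each of the 3 same-numbered pairs of libraries.

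**Figure D2:**
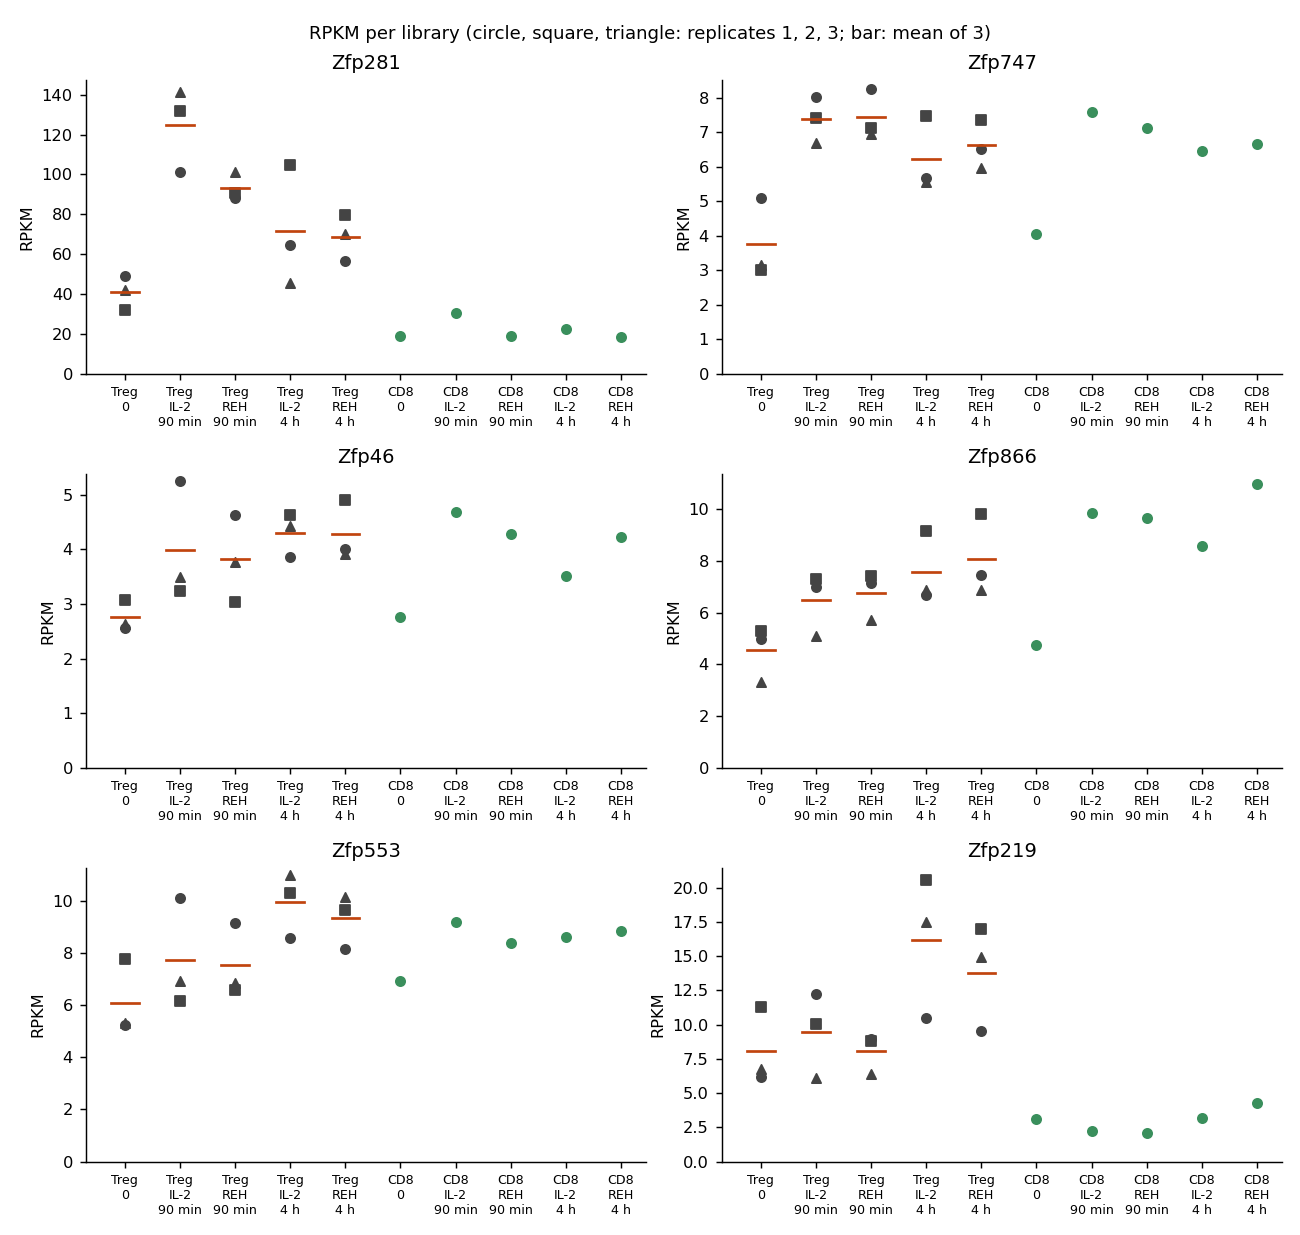
RPKM of the 6 members that passed the test, in each of the 20 libraries; REH stands for IL-2-REH, marker shapes give the replicate number, the bar is the mean of the 3 Treg libraries, and green points are single CD8+ libraries. In Tregs Zfp281 and Zfp747 were highest at 90 min and Zfp219 and Zfp553 at 4 hr. In RPKM, Zfp281 and Zfp219 were lower in every CD8+ library than in every Treg library. For Zfp281 the gap was narrow and was not kept with TMM-scaled counts.

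The count of members that passed was close to that over all genes. After 90 min of IL-2, 2 of 236 members passed (0.847%), against 0.854% of the 14992 genes tested, and after 4 hr 4 members passed (1.69%), against 2.27%. After IL-2-REH no member passed at either time, against 0.0934% of genes at 90 min and 0.314% at 4 hr, although 36 members (15.3%, against 11.4% of all genes) and 39 members (16.5%, against 13.3%) had an unadjusted p under 0.05. DESeq2 called 3 members at 90 min (1.27%, against 0.734% of all genes) and 8 at 4 hr (3.39%, against 3.77%). At the unadjusted level, 28 members were higher and 10 lower after 90 min of IL-2 (16.1% in all, against 13.8% of all genes), and 36 were higher and 12 lower after 4 hr (20.3%, against 17.7%). The median log2 fold change of the members against unstimulated cells was 0.08 to 0.09 in the 4 comparisons, which share the unstimulated libraries, and that of all genes tested was -0.06 to 0.01.

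Libraries with the same number moved together within their groups, so each comparison was also fitted with the replicate number as a block. With the block, 4 members passed after 90 min of IL-2 (1.69%, against 1.83% of all genes). After 4 hr of IL-2 there were 14 (5.93%, against 6.94%). Under IL-2-REH, 1 passed at 90 min (0.424%, against 0.213%) and 6 at 4 hr (2.54%, against 3.03%). The members called with the block alone were named after their values were seen. Zfp608, studied in thymocytes as a repressor of the Rag genes, had the lowest adjusted p among them after IL-2. It was at 1.46, 2.58 and 2.92 RPKM in unstimulated Tregs, at 4.35, 5.34 and 7.66 after 90 min of IL-2 and at 4.18, 6.31 and 6.88 after 4 hr. With the block its log2 fold change was 1.48 (adjusted p = 0.00308) and 1.42 (adjusted p = 0.00243), and without it 1.51 and 1.41 (adjusted p = 0.0722 and 0.0563). After IL-2-REH it was at 3.87, 4.05 and 6.55 RPKM at 90 min and 2.71, 4.19 and 2.70 at 4 hr, with a log2 fold change of 1.22 in the blocked fit at 90 min (adjusted p = 0.0401).

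The 14 members in the blocked fit of 4 hr of IL-2 were 11 that rose and 3 that fell, and the latter, Zfp942, Zfp758 and Zfp781, were all KRAB genes. Zfp942 was at 6.23, 9.86 and 5.29 RPKM unstimulated and at 4.74, 4.33 and 1.18 after 4 hr of IL-2, with a log2 fold change of -1.12 (adjusted p = 0.0264). In IL-2 4 hr library 3, which had the fewest reads, Zfp942, Zfp758 and Zfp781 had 128, 157 and 98 reads. The blocked fit was not repeated without that library. After 4 hr of IL-2-REH the 6 members were Zfp617, Zfp764, Zfp866, Zfp719, Zfp688 and Zfp784, all of which rose, by 0.69 to 1.26 on the log2 scale. All members that passed without the block also passed with it.

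The calls depended on which unstimulated libraries were used. Without unstimulated library 1, 25 members passed after 90 min of IL-2 (10.6%, against 12.9% of all genes). After 4 hr of IL-2 there were 15 (6.36%, against 8.87%). Under IL-2-REH, 24 passed at 90 min (10.2%, against 12.1%) and 12 at 4 hr (5.08%, against 6.93%). Without library 2, or without library 3, 0 members passed in each of these comparisons, against at most 0.887% and 0.465% of all genes. Without IL-2 4 hr library 3 the 4 members called after 4 hr of IL-2 also dropped to 0, against 1.01% of all genes. Zfp467, which is known for directing stromal cells to fat, differed between the unstimulated libraries. It was at 1.31 RPKM in unstimulated library 1 and at 8.29 and 4.83 in libraries 2 and 3, and at 0.857 to 1.6 after 90 min of IL-2. Without library 1 its log2 fold change was -2.12 (adjusted p = 0.000763). Zfp831 likewise was at 5.65 RPKM in library 1 and 20.1 and 17.9 in libraries 2 and 3, against 5.55 to 7.54 after 90 min of IL-2. The macrophage and monocyte markers divided the unstimulated libraries in the same way, and their part in these values was not tested.

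IL-2-REH and IL-2 were compared directly at each time, and no member passed at 90 min or 4 hr, with or without the block. Over all genes 0.0133% passed at 90 min and 0.0267% at 4 hr, and DESeq2 called 0 members in both, against 0.1% and 0.394% of all genes. At an unadjusted p under 0.05 there were 2 members at 90 min (0.847%, against 0.994% of all genes) and 5 at 4 hr (2.12%, against 3.73%). Zfp281 was lower under IL-2-REH than under IL-2 at 90 min in all 3 pairs, by 0.44 on the log2 scale with an SE of 0.30 (adjusted p = 1.0). The 95% interval of this difference ran from -1.08 to 0.20, so that no difference and a difference of 1 on the log2 scale both lay inside it. All intervals given here come from the fit without the block, which leaves out the pairing of the libraries. Intervals with the block were not computed. Zfp608 had the lowest value at 4 hr, with a log2 difference of -0.94 (SE 0.35, unadjusted p = 0.018, adjusted p = 1.0) and all 3 pairs lower. For Zfp747 the intervals were narrower, from -0.48 to 0.50 at 90 min and from -0.47 to 0.51 at 4 hr. The half-width of the 95% interval had a median of 0.60 over the members at both times, and narrower intervals included that of Zfp46, from -0.43 to 0.31 at 90 min.

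From 90 min to 4 hr no member passed under IL-2 or under IL-2-REH, and 0.0% of all genes did so in either comparison. At an unadjusted p under 0.05 there were 45 members under IL-2 (19.1%, against 17.0% of all genes) and 24 under IL-2-REH (10.2%, against 14.6%). DESeq2 called 7 members under IL-2 (2.97%, against 2.49% of all genes) and 3 under IL-2-REH (1.27%, against 1.67%). With the block, Zfp395 rose under IL-2 from 90 min to 4 hr and Zfp758 fell, which made 2 members (0.847%, against 0.387% of all genes). Zfp395 was at 7.04, 3.76 and 4.72 RPKM at 90 min and at 12.9, 8.67 and 15.3 at 4 hr, without overlap (log2 fold change 1.21, adjusted p = 0.0443). Zfp758 was at 5.10, 4.06 and 3.86 RPKM at 90 min and at 2.46, 2.50 and 1.6 at 4 hr, also without overlap (log2 fold change -1.09, adjusted p = 0.035).

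Neighbouring members were also described by cluster. Of 33 clusters, formed by members within 250 kb of each other, 16 held at least 4 members. Members of a cluster are often close in sequence, and the authors kept uniquely mapped reads only, so reads of near-identical stretches are missing from all of them. These medians were not tested, and the clusters described were picked after their values were seen.

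The cluster at chr7:127233061-127449158 holds Zfp553, Zfp771, Zfp747, Zfp764, Zfp688 and Zfp689, of which 4 are KRAB genes. Its median log2 fold change against unstimulated Tregs was 0.50 after 90 min and 0.67 after 4 hr of IL-2, and 0.49 and 0.70 after IL-2-REH. All 6 were above 0 at 4 hr in both, and 5 of 6 at 90 min, where Zfp771 had -0.18 and -0.22. Zfp688 had a log2 fold change of 0.04 after 90 min of IL-2, 0.59 after 4 hr of IL-2 and 1.03 after 4 hr of IL-2-REH.

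A cluster of 9 KRAB genes on chromosome 17, from Zfp677 to Zfp943 (chr17:21383707-21994366), had a median above 0 in Tregs at 90 min only. The median log2 fold change was 0.54 after 90 min of IL-2 and 0.51 after IL-2-REH, and -0.20 and -0.08 at 4 hr. Its best expressed gene, Zfp53, was at 25.8, 18.9 and 12.9 RPKM in unstimulated Tregs and at 31.4, 32.5 and 35.4 after 90 min of IL-2. At 4 hr of IL-2 Zfp53 was at 14.8, 26 and 9.13 RPKM, which overlapped the unstimulated libraries. The log2 fold change of Zfp53 at 90 min, 0.92 (SE 0.34), did not pass with all libraries (adjusted p = 0.25) and passed without unstimulated library 1 (1.31, adjusted p = 0.023). Zfp948 and Zfp760 departed from the cluster, with log2 fold changes of 1.27 and 1.04 after 4 hr of IL-2-REH.

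The reverse order was seen in a cluster of 4 genes at chr7:6131489-6396637, Zfp787, Zfp444, Zfp667 and Zfp28. Its median was -0.03 at 90 min of IL-2 and of IL-2-REH, and 0.74 and 0.71 at 4 hr, with all 4 genes above 0 at 4 hr. Zfp444 was at 2.88, 3.44 and 2.21 RPKM unstimulated and at 4.48, 4.21 and 4.96 after 4 hr of IL-2, without overlap. Clusters with medians below 0 in all 4 comparisons of Tregs with unstimulated cells included 4 KRAB genes on chromosome 10 (-0.17 and -0.65 after 90 min and 4 hr of IL-2) and 4 on chromosome 2 (-0.43 and -0.61). The chromosome 13 cluster with the shared promoter element had medians of 0.31 and 0.05 in Tregs after 90 min and 4 hr of IL-2.

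**Figure D3:**
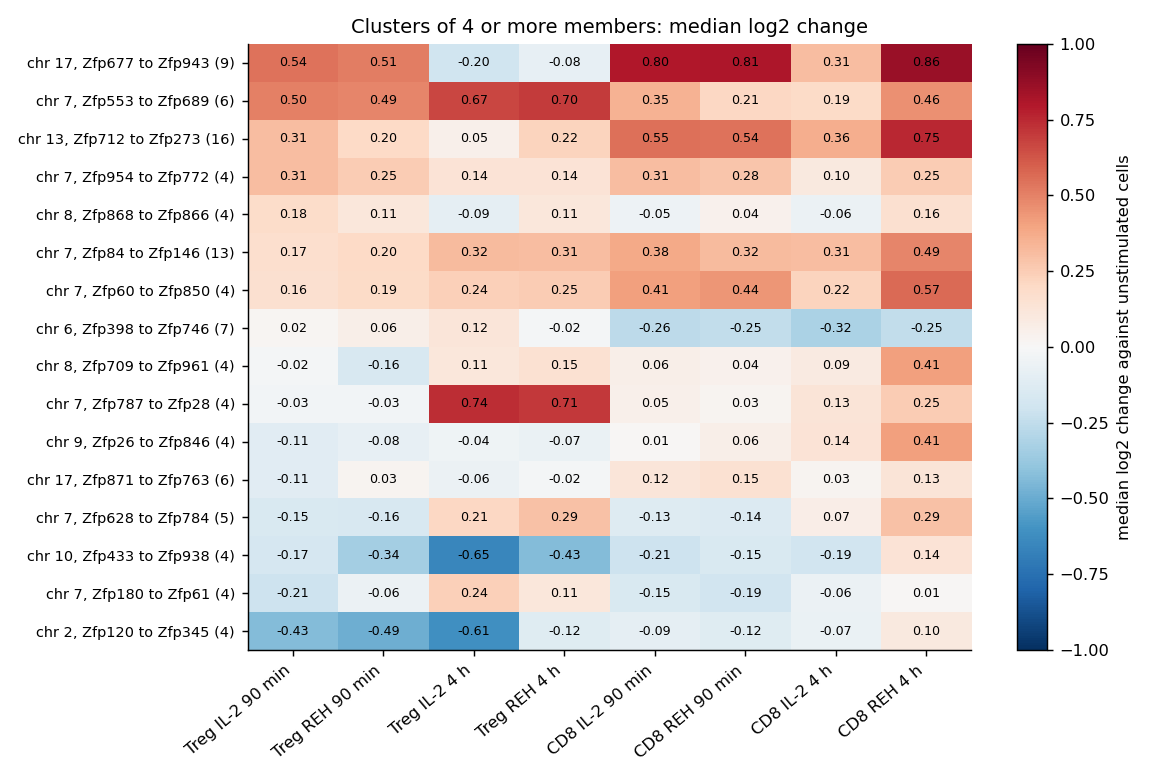
Median log2 change against unstimulated cells for the 16 clusters of at least 4 members, named by chromosome and by first and last member with the number of members in parentheses; columns are Treg comparisons (edgeR, 3 libraries per group) and CD8+ comparisons (log2 ratio of RPKM + 1, 1 library each), and REH stands for IL-2-REH. The chromosome 17 cluster from Zfp677 to Zfp943 has medians of 0.54 and 0.51 in Tregs at 90 min and below 0 at 4 hr, while in CD8+ cells it is highest at 4 hr of IL-2-REH (0.86, against 0.80 and 0.81 at 90 min). The cluster from Zfp787 to Zfp28 is high in Tregs at 4 hr.

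Members with known roles were read by 3 lists. Of 10 RNA, ribosome and spindle factors 9 were members, none passed in any comparison, and their median log2 fold change was 0.22 after 90 min and 0.36 after 4 hr of IL-2. Zfp207 was the highest of them at 46.9 RPKM, followed by Zfp622 at 22.9, Zfp106 at 19.5 and Zfp598, the ubiquitin ligase that senses collided ribosomes, at 18.7. The other members of this list were Zfp706 at 12.2 RPKM, Zfp326 at 10, Zfp830 at 6.52, Zfp593 at 6.03 and Zfp346, which binds double-stranded RNA, at 5.57. Zfp326, a splicing factor, had a log2 fold change of 0.74 after 90 min of IL-2 (SE 0.24, adjusted p = 0.205). Of 20 transcription and chromatin factors without a KRAB box 15 were members, and Zfp281 and Zfp219 were those that passed. Zfp91, an atypical ubiquitin ligase, had a log2 fold change of -0.50 after 4 hr of IL-2 (SE 0.18, adjusted p = 0.177). Zfp335, required for the maintenance of naive T cells, was at a mean of 13.9 RPKM and had log2 fold changes of 0.18 and 0.02 after 90 min and 4 hr of IL-2.

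Of 13 KRAB repressors of imprinted genes or retroelements 10 were members and none passed. Zfp57, Zfp819 and Zfp30 were below the minimum. Zfp445, which guards imprints, was the highest at 21.7 RPKM, with log2 fold changes of 0.24 and 0.08 after 90 min and 4 hr of IL-2. Zfp809, which silences murine leukaemia proviruses, had a mean of 11.5 RPKM and a log2 fold change of 0.82 after 90 min of IL-2 (SE 0.27, adjusted p = 0.199). Zfp568, a repressor of placental Igf2 transcripts, was at 2.22 RPKM, and Zfp708 was among the lowest at 1.08. Their corepressor pathway was measured through 29 genes, of which 27 were found in the files and none passed in any of the 4 comparisons with unstimulated Tregs or the 2 comparisons of cytokines, with or without the block. Trim28 had a mean of 50.9 RPKM and Setdb1 12.8, and the median log2 fold change of the 27 genes was 0.06 and 0.04 after 90 min and 4 hr of IL-2.

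CD8+ T cells had 1 library per group, so their log2 ratios of RPKM + 1 have no replicate check and no test. From the unstimulated library to the stimulated ones, the summed level of the macrophage and monocyte markers went from 39.7 RPKM to 13.2 to 20.7, and that of 7 B cell markers from 13.1 RPKM to 3.89 to 5.66. Their part in the ratios of the members was not tested. After 90 min, 5 members were beyond 1 in absolute log2 ratio under IL-2 (2.12%, against 6.71% of 10458 expressed genes) and 4 under IL-2-REH (1.69%, against 7.96%). After 4 hr there were 2 under IL-2 (0.847%, against 4.26%) and 14 under IL-2-REH (5.93%, against 5.72%). All 14 were higher, whereas 172 of the expressed genes beyond 1 were higher and 426 were lower. No member was beyond 1 in the log2 ratio of IL-2-REH to IL-2 at 90 min or 4 hr, against 0.832% and 2.1% of expressed genes.

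Most of the highest ratios were in KRAB genes, which made up 11 of the 14 members beyond 1 after 4 hr of IL-2-REH. Zfp382 went from 2.69 RPKM unstimulated to 8.23 after 90 min of IL-2 and 8.22 after IL-2-REH, a log2 ratio of 1.32 in both. Zfp53 went from 9.83 to 24.0 and 21.1 RPKM, with log2 ratios of 1.21 and 1.03. Zfp948 went from 0.664 RPKM to 3.50 after 4 hr of IL-2 and 5.14 after IL-2-REH, with log2 ratios of 1.44 and 1.88, and its neighbour Zfp760 from 0.402 to 1.94 and 3.22, with 1.07 and 1.59. Zfp53, Zfp948 and Zfp760 belong to the same chromosome 17 cluster. Zfp169, also a KRAB gene, reached 17.6 RPKM after 4 hr of IL-2-REH from 6.09, a log2 ratio of 1.39. The highest member at 90 min in which no KRAB box was found was Zfp189, at 1.16 RPKM unstimulated and 3.74 and 3.42 after IL-2 and IL-2-REH. At 4 hr of IL-2 it was Zfp329 (2.76 to 6.08 RPKM).

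The lowest ratios were in members without a KRAB box. Zfp831 went from 9.80 to 3.96 RPKM after 90 min of IL-2 (log2 ratio -1.12), Zfp414 from 11.5 to 4.99 after 90 min of IL-2-REH (-1.06), and Zfp512 from 8.04 to 4.00 and 3.94 (-0.86 and -0.87). At 4 hr the lowest were Zfp692 under IL-2 (7.89 to 3.75 RPKM, -0.91), followed by Zfp414 and Zfp362, and Zfp593, a factor of ribosome maturation, under IL-2-REH (7.97 to 3.58 RPKM, -0.97). Zfp831, Zfp512 and Zfp414 were also lower in Tregs at 90 min in pairs 2 and 3, and in pair 1 their log2 ratios under IL-2 were 0.36, 0.26 and 0.09.

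KRAB members had a higher median log2 ratio than the other members in the 4 comparisons of CD8+ cells with the unstimulated library, by little at 4 hr of IL-2 (0.07 against 0.01). At 4 hr of IL-2-REH their median log2 ratio was 0.44 and 117 of 135 (86.7%) were above 0, against a median of 0.16 for the other members and -0.02 for all expressed genes, of which 48.1% were above 0. At 90 min the medians were 0.22 and 0.05 under IL-2 and 0.21 and -0.00 under IL-2-REH. In Tregs the median log2 fold change of KRAB members was not above that of the others at 4 hr of IL-2 (0.04 against 0.19), at 4 hr of IL-2-REH (0.08 against 0.10) or at 90 min of IL-2-REH (0.08 against 0.09), and at 90 min of IL-2 it was 0.10 against 0.08. At 4 hr, 214 of 236 members (90.7%) were higher under IL-2-REH than under IL-2, against 61.4% of expressed genes, with a median of 0.22 against 0.07. The members furthest in this direction were Zfp51 (11.3 against 5.70 RPKM, log2 ratio 0.87), Zfp386 (13.7 against 7.22, 0.84) and Zfp935 (6.71 against 3.45, 0.79). Zfp593, Zfp609 and Zfp281 lay lowest, at -0.66, -0.42 and -0.26. At 90 min Zfp281 was at 18.8 RPKM under IL-2-REH and 30.7 under IL-2, a log2 ratio of -0.68 and the lowest of the members, followed by Zfp609 at -0.48 and Zfp414 at -0.27. Zfp457 (0.39), Zfp69 (0.31) and Zfp488 (0.29) were the highest there. As each of these values rests on a pair of libraries, a difference between libraries and a difference between cytokines cannot be told apart.

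Members with the ACTACA element in the promoter had a median log2 ratio of 0.35 at 90 min and 0.28 at 4 hr of IL-2 in CD8+ cells, against 0.07 and 0.01 for the members whose window lacked it. After 4 hr of IL-2-REH the medians were 0.53 and 0.23. In Tregs the medians were closer under IL-2, at 0.15 and 0.08 after 90 min and 0.16 and 0.06 after 4 hr. Under IL-2-REH in Tregs they were 0.13 and 0.06 at 90 min and 0.29 and 0.07 at 4 hr. Many of these members are neighbours in a pair of clusters, so position and element cannot be told apart. Zfp143 itself was at 4.99, 12 and 12.9 RPKM in unstimulated Tregs and 7.60, 5.32 and 5.65 after 90 min of IL-2, and at 8.88 and 5.67 RPKM in CD8+ cells before and after it.

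**Figure D4:**
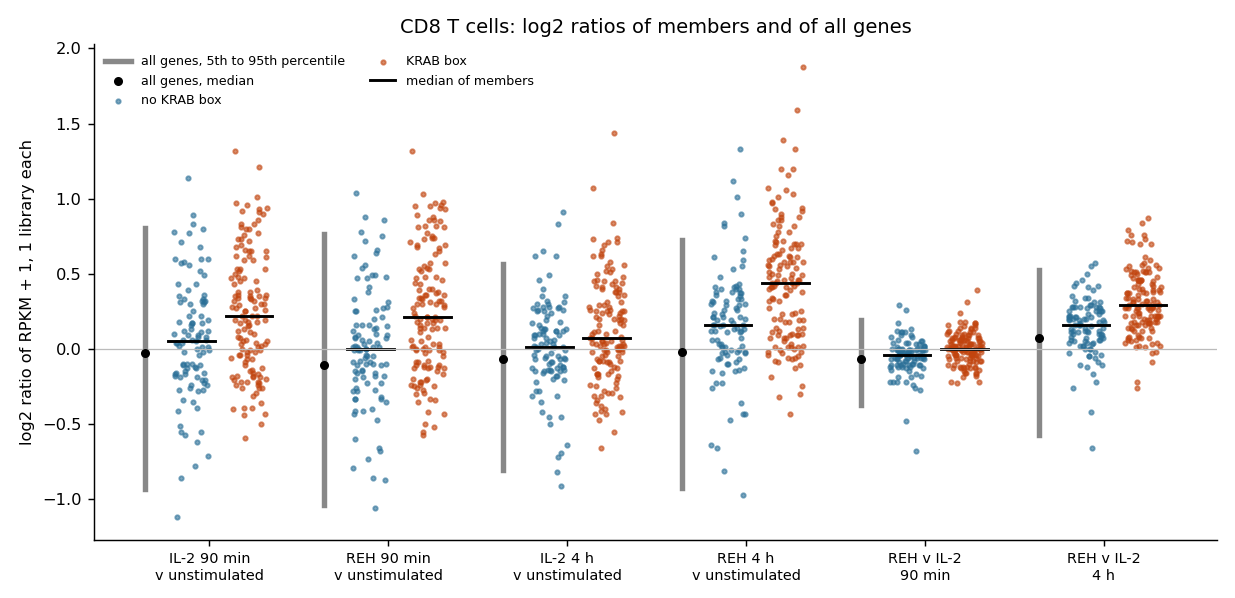
Log2 ratios of RPKM + 1 in CD8+ T cells, 1 library in each group, for members without (blue) and with (red) a KRAB box; horizontal bars are the medians of the members, grey bars span the 5th to 95th percentile of the 10458 expressed genes, and black dots are their medians (REH stands for IL-2-REH). The KRAB members sit highest at 4 hr of IL-2-REH, with a median of 0.44 against -0.02 over expressed genes.

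Some members separated the cell types in all libraries. The 5 CD8+ libraries were all above the 15 Treg libraries for 6 members (2.54%, against 2.74% of expressed genes), and all below them for 7 members (2.97%, against 7.24%). Members and expressed genes were kept by a mean over both cell types, so some passed only through the cell type where they were high. Zfp661, with a mean of 1.0 RPKM, had a median of 0.698 in Tregs. Zfp608, Zfp870, Zfp467 and Zfp345 were under 1 RPKM in every CD8+ library. Within Tregs, Zfp345 had 264 to 559 reads in the libraries numbered 1 and only 65 to 157 in those numbered 2 and 3. These separations are therefore a description. As cell type and mouse strain or isolation method go together, they cannot be told apart. Among the 6 members higher in CD8+ cells, Zfp652, a corepressor partner of Cbfa2t3, had the widest gap. Its RPKM was 19.2 to 22.4 (median 20.5) in CD8+ libraries and 5.55 to 12.8 (median 7.83) in Treg libraries. Zfp386 was at 7.22 to 13.7 RPKM against 1.90 to 5.86, and Zfp661 at 1.54 to 2.41 against 0.286 to 1.18. Zfp318, which B cells need for IgD, was at 4.02 to 5.12 RPKM against 1.92 to 3.66, and Zfp568 at 2.73 to 3.19 against 1.40 to 2.46.

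Among those lower in CD8+ cells, Zfp608 had the widest gap, at 0.255 to 0.579 RPKM (median 0.355) against 1.46 to 7.66 in Tregs (median 4.18). Zfp870 was at 0.057 to 0.166 RPKM against 0.595 to 2.79, with at least 21 reads in each CD8+ library. Zfp219 was at 2.08 to 4.25 RPKM against 6.13 to 20.5, and Zfp467 at 0.169 to 0.538 against 0.857 to 8.29. Zfp281 was at 18.6 to 30.7 RPKM against 32 to 141, with a narrow gap between the highest CD8+ library and unstimulated Treg library 2. With read counts scaled by TMM in place of RPKM, the order of these libraries was reversed. The cell types then overlapped for Zfp281. Zfp608, Zfp219 and Zfp281 passed the test after IL-2 in Tregs in the plain or blocked fit. In RPKM they were thus lower in every CD8+ library than in any Treg library. Zfp747, Zfp553, Zfp866 and Zfp46, which also passed, did not separate the cell types. The summed macrophage and monocyte markers were at 13.2 to 39.7 RPKM in CD8+ libraries and 7.33 to 85.1 in Treg libraries. The summed erythroid genes were at 2.31 to 7.85 RPKM against 5.31 to 230. The part of these other-cell genes in the separation of the members was not tested.

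**Figure D5:**
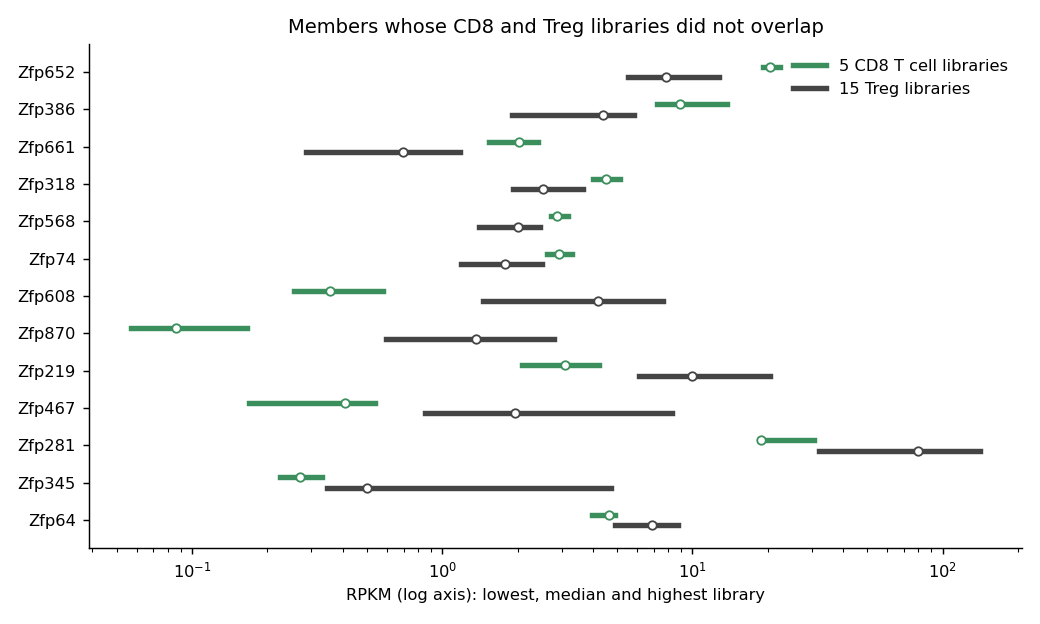
Lowest, median (circle) and highest RPKM (log axis) in the 5 CD8+ and the 15 Treg libraries, for the 13 members whose libraries did not overlap between the cell types. The upper 6 are higher in CD8+ cells, led by Zfp652 (19.2 to 22.4 against 5.55 to 12.8 RPKM), and the lower 7 are higher in Tregs.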

How the data were processed

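RNA was sequenced from 15 Treg and 5 CD8+ T cell libraries as 50-base single-end reads. Per the labels and the methods, the authors aligned reads to mm10 with TopHat2 (version 2.1.1) and Bowtie2 (version 2.2.6) and deposited, for each RefSeq transcript, a read count over exons and an RPKM value. The strand setting of the counting is not given in the sources used here.

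For each symbol the transcript with the most reads over 20 libraries was used (23992 symbols from 31682 transcripts). Members and gene lists were chosen with earlier results of these data known. Deposited counts of the 15 Treg libraries were fitted together with edgeR 4.0.16 (R 4.3.3; TMM, filterByExpr, quasi-likelihood test, 1 mean per group), with Benjamini-Hochberg adjustment over 14992 genes. The SE is the absolute log2 fold change divided by the square root of F. The CD8+ libraries and the cell types were compared on deposited RPKM with a pseudocount of 1 and without a test.

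Named were the members that passed, those with the 5 highest and 3 lowest means, the 3 highest and 3 lowest ratios in each CD8+ comparison, the 5 widest gaps between cell types in each direction, and members of the 3 lists of known roles. KRAB boxes were called at 30% identity to a consensus of 40 residues, and BTB domains were not searched. Same-numbered Treg libraries deviated together in all 30 comparisons of groups (correlations of 0.121 to 0.84), so the numbers, which come from the labels, were taken as pairing the samples. Alternatives were the replicate block, DESeq2 1.42.0, limma 3.58.1, other filters, scalings and pseudocounts, and leaving out libraries. Intervals and read depth cover counting and library spread only.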

Additional observations from a re-analysis of the deposited data

How the results depend on the processing

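The counts of members that passed in Tregs depended on the fit and on unstimulated library 1, and the cause was not tested. After 90 min of IL-2, the 2 members became 4 with the replicate block (1.69%, against 1.83% of all genes). DESeq2 gave 9 (3.81%, against 3.7%), limma 1 (0.431%, against 1.03%) and no filter on low counts 1 (0.424%, against 0.583%). Leaving out a library or replicate number gave 0 to 30 (at most 12.7%, against 17.3%). After 4 hr of IL-2, the 4 became 14 with the replicate block (5.93%, against 6.94% of all genes). DESeq2 gave 17 (7.2%, against 6.76%), limma 0 (against 2.54%) and no filter 0 (against 1.37%). With one left out there were 0 to 21 (at most 8.9%, against 13.4%). For IL-2-REH at 90 min, the 0 members became 1 with the replicate block (0.424%, against 0.213% of all genes). DESeq2 gave 3 (1.27%, against 0.734%) and leaving one out 0 to 30 (at most 12.7%, against 15.7%). At 4 hr these were 6 (2.54%, against 3.03%), 8 (3.39%, against 3.77%) and 0 to 15 (at most 6.36%, against 10.7%). From 90 min to 4 hr under IL-2, the 0 members became 2 with the replicate block (0.847%, against 0.387% of all genes). DESeq2 gave 7 (2.97%, against 2.49%) and leaving one out 0 to 5 (at most 2.12%, against 4.32%). Under IL-2-REH, DESeq2 gave 3 (1.27%, against 1.67%) and leaving one out 0 to 3 (at most 1.27%, against 3.96%). The block without unstimulated library 1 was added after seeing the data. After 90 min of IL-2 it gave 54 members (22.9%, against 26.9% of all genes) and after 4 hr 50 (21.2%, against 21.0%). Under IL-2-REH it gave 56 at 90 min (23.7%, against 25.4%) and 35 at 4 hr (14.8%, against 16.7%). From 90 min to 4 hr it gave 27 under IL-2 (11.4%, against 11.6%) and 16 under IL-2-REH (6.78%, against 11.4%). Leaving out IL-2 4 hr library 3, also added, gave 0 after 4 hr of IL-2, against 1.01% of all genes. IL-2-REH against IL-2 gave 0 members under every alternative run, against at most 0.549% of all genes. None of the 6 members called in the edgeR fit changed direction under the alternatives, and their log2 fold changes ranged from 1.47 to 2.18 for Zfp281 and from 0.84 to 1.50 for Zfp747. However, of 14 alternatives Zfp281 did not pass in 4 and Zfp747 in 6. Zfp46, Zfp553 and Zfp866 did not pass in 7 each, and Zfp219 in 8. In CD8+ cells a pseudocount of 0.1 gave 18, 5, 19 and 30 members beyond 1 after 90 min and 4 hr of IL-2 and 90 min and 4 hr of IL-2-REH, centring on medians gave 11 after 90 min of IL-2-REH, and a minimum of 5 RPKM gave 0 and 7 at 4 hr of IL-2 and of IL-2-REH. Members higher in all CD8+ libraries numbered 17 with TMM-scaled CPM, 2 at 5 RPKM and 6 to 10 with a library or replicate number left out, and those lower numbered 4, 3 and 7 to 15. For these alternatives in CD8+ cells and between the cell types, the share over all expressed genes is not given here.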
